A study of Homo sapiens with 12 samples.

Results

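SQSTM1, which encodes the autophagy receptor p62, was examined in HuH-7 cells together with 9 genes of the autophagy core, namely NBR1, MAP1LC3B, GABARAPL1, GABARAP, ULK1, WIPI1, BECN1, ATG5 and ATG7. The 10 genes, of 29245 names on the array, were chosen by name, and every gene probe that the array's design assigns to one of them was used, whatever its value. These genes and the lists below were chosen with earlier results of these data known. Their counts beside the shares of all probes are therefore descriptions. This gave 18 of the 41000 gene probes on the array, between 1 and 3 per gene. All 18 probes were well above the local background on all 12 arrays, so that none of them entered the tests through 1 condition alone.

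HuH-7 is a human hepatocellular carcinoma cell line, and per the labels it carries the p53 mutation Y220C, which all groups therefore share. Cells were exposed for 24 h to SLMP53-2, a small molecule studied for its action on mutant p53, at 28 µM or 42 µM, or to its solvent DMSO. The labels give the doses as 2 and 3 multiples of the IC50. The 3 groups held 4 arrays each, from 4 biological replicates per group, labelled with 1 dye and spread over 5 slides. The higher dose is given as 42 µM in the titles and as 48 µM in the treatment field of the same samples, and it is called 42 µM below. All results are from 1 cell line, and no group of untreated cells without DMSO was analysed here.

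In macroautophagy a membrane sheet grows around cytoplasmic cargo, closes to an autophagosome and fuses with a lysosome, where the content is degraded. The ULK1 kinase complex starts the process, the class III phosphatidylinositol 3-kinase that holds BECN1 marks the growing membrane, WIPI proteins read that mark, and the conjugation enzymes with ATG5 and ATG7 attach the Atg8 proteins (the LC3 and GABARAP families) to the membrane. Cargo receptors such as p62 and NBR1 bind ubiquitin-tagged cargo on one side and Atg8 proteins on the other, and are degraded with it. Because p62 and lipidated LC3 are consumed by the process, transcript levels like those measured here do not give the rate of autophagy.

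SQSTM1 and MAP1LC3B were the 2 members that passed the test, and the 250 bases before their RefSeq start sites (GRCh38.p14, each on the + strand) are therefore shown, 5′ to 3′. For SQSTM1, with 3 listed start sites, the window of the most downstream one is given (chr5:179820655-179820904), and for MAP1LC3B the single one (chr16:87392086-87392335). The letters in capitals are a match to TGACNNNGC, the core of the antioxidant response element.
SQSTM1: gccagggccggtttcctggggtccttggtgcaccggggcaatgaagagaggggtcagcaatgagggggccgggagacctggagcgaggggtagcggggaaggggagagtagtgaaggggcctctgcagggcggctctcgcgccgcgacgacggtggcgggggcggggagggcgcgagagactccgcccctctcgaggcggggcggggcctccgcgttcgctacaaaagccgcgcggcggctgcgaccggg
MAP1LC3B: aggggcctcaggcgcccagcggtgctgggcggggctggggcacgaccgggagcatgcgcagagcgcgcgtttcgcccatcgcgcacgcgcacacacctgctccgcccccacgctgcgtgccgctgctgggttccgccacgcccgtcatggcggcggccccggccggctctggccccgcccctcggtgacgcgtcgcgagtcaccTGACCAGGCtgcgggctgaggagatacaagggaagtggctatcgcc
Both windows were rich in G and C, with 73.6% for SQSTM1 and 74.8% for MAP1LC3B. RefSeq windows from 250 bases before to 50 after a start site were searched on both strands, and 14 of them belonged to the 10 members. TGACNNNGC was found in 1 of these 14 windows, that of MAP1LC3B at position -46 from the start, against 13.3% of all 35116 windows. CACGTG, the centre of the element bound by TFEB and its relatives, was in none of the 14 windows and in 7.26% of all, and TGATGNAA, a form of the element bound by C/EBP and ATF dimers, was in none of the 14 and in 3.62% of all. A match is a description of letters, and its absence says only that the letters do not lie in these windows.

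Per array, 65.0% to 85.0% of the gene spots were well above background, both ends of that range falling at 28 µM. The arrays also differed in brightness, and this difference went with the group. Before normalization the median spot intensity was 198 to 235 on the 28 µM arrays. In DMSO it was 170 to 182 and at 42 µM 174 to 185. All 9 hepatocyte markers tested, albumin and alpha-fetoprotein among them, were detected on all 4 DMSO arrays. The leukocyte gene PTPRC was detected on 0 of 12 arrays, while the other leukocyte markers and all endothelial ones, as well as 2 of 3 fibroblast markers, were above background on all 4 DMSO arrays. One array stood apart. Over the 473 probes called higher at 42 µM, the median shift from the DMSO mean was 0.14 (log2) on 28 µM replicate 4 against 0.76 to 0.92 on the other 28 µM arrays. Over the 415 probes called lower it was -0.13 against -0.64 to -0.88. The members and the factors called at 42 µM are thus given at 28 µM with and without this array. It was picked by its small shift over probes that include those of the called genes, so that leaving it out favours larger differences. Differences and adjusted p without it, here and below, are therefore descriptions and not independent tests.

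At 42 µM, SQSTM1 and MAP1LC3B rose and none of the 10 members fell. In these bulk RNA samples a change per cell and a change in the mix of cells cannot be told apart. SQSTM1 was 2.61-fold higher than in DMSO and the called probe of MAP1LC3B 1.94-fold higher. GABARAP was 1.46-fold higher with all 4 arrays above all DMSO arrays, but did not pass, and the remaining 7 members did not pass either. A probe was called when limma's adjusted p over all 33467 probes tested was below 0.05 and the difference from DMSO reached 0.6 on the log2 scale, and a gene when 1 of its probes was. Over all probes 1.41% were called higher (473 probes) and 1.24% lower (415 probes) at this dose, beside 2 of 10 members higher and none lower. These shares are of probes and the counts are of genes, and a gene with several probes has several chances to be called. With the unadjusted p in place of the adjusted one the members were again these 2, where 2.93% of all probes were higher and 2.1% lower. With the values scaled to the 75th percentile in place of quantile normalization, 319 probes were called higher and 493 lower, and SQSTM1 and MAP1LC3B were still the members called. By the brightest probe of each gene 9 of 10 members had a higher mean at 42 µM than in DMSO (47.5% of all probes had), the median difference being 0.35 (log2) against -0.01 for all probes. This median fell to 0.16 with the processed signal scaled to the 75th percentile and was 0.25 with the other signal scaled in the same way. Levels and differences below are normalized log2 values unless called a fold.

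At 28 µM limma called 0 of the 10 members and 0% of all probes in either direction. At an unadjusted p below 0.05 with the same fold limit, 2 members (SQSTM1 and MAP1LC3B) were higher and 0 lower, against 1.36% and 1.02% of all probes. The median over the members was 0.24 (0.11 with either signal scaled to the 75th percentile), and 7 of 10 were higher than in DMSO. Without 28 µM replicate 4 the median was 0.33, and SQSTM1 and MAP1LC3B were called, with 1.3% of all probes called higher and 0.84% lower. Both doses were compared with the same 4 DMSO arrays, so that the values at the 2 doses are not independent of each other.

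**Figure D1:**
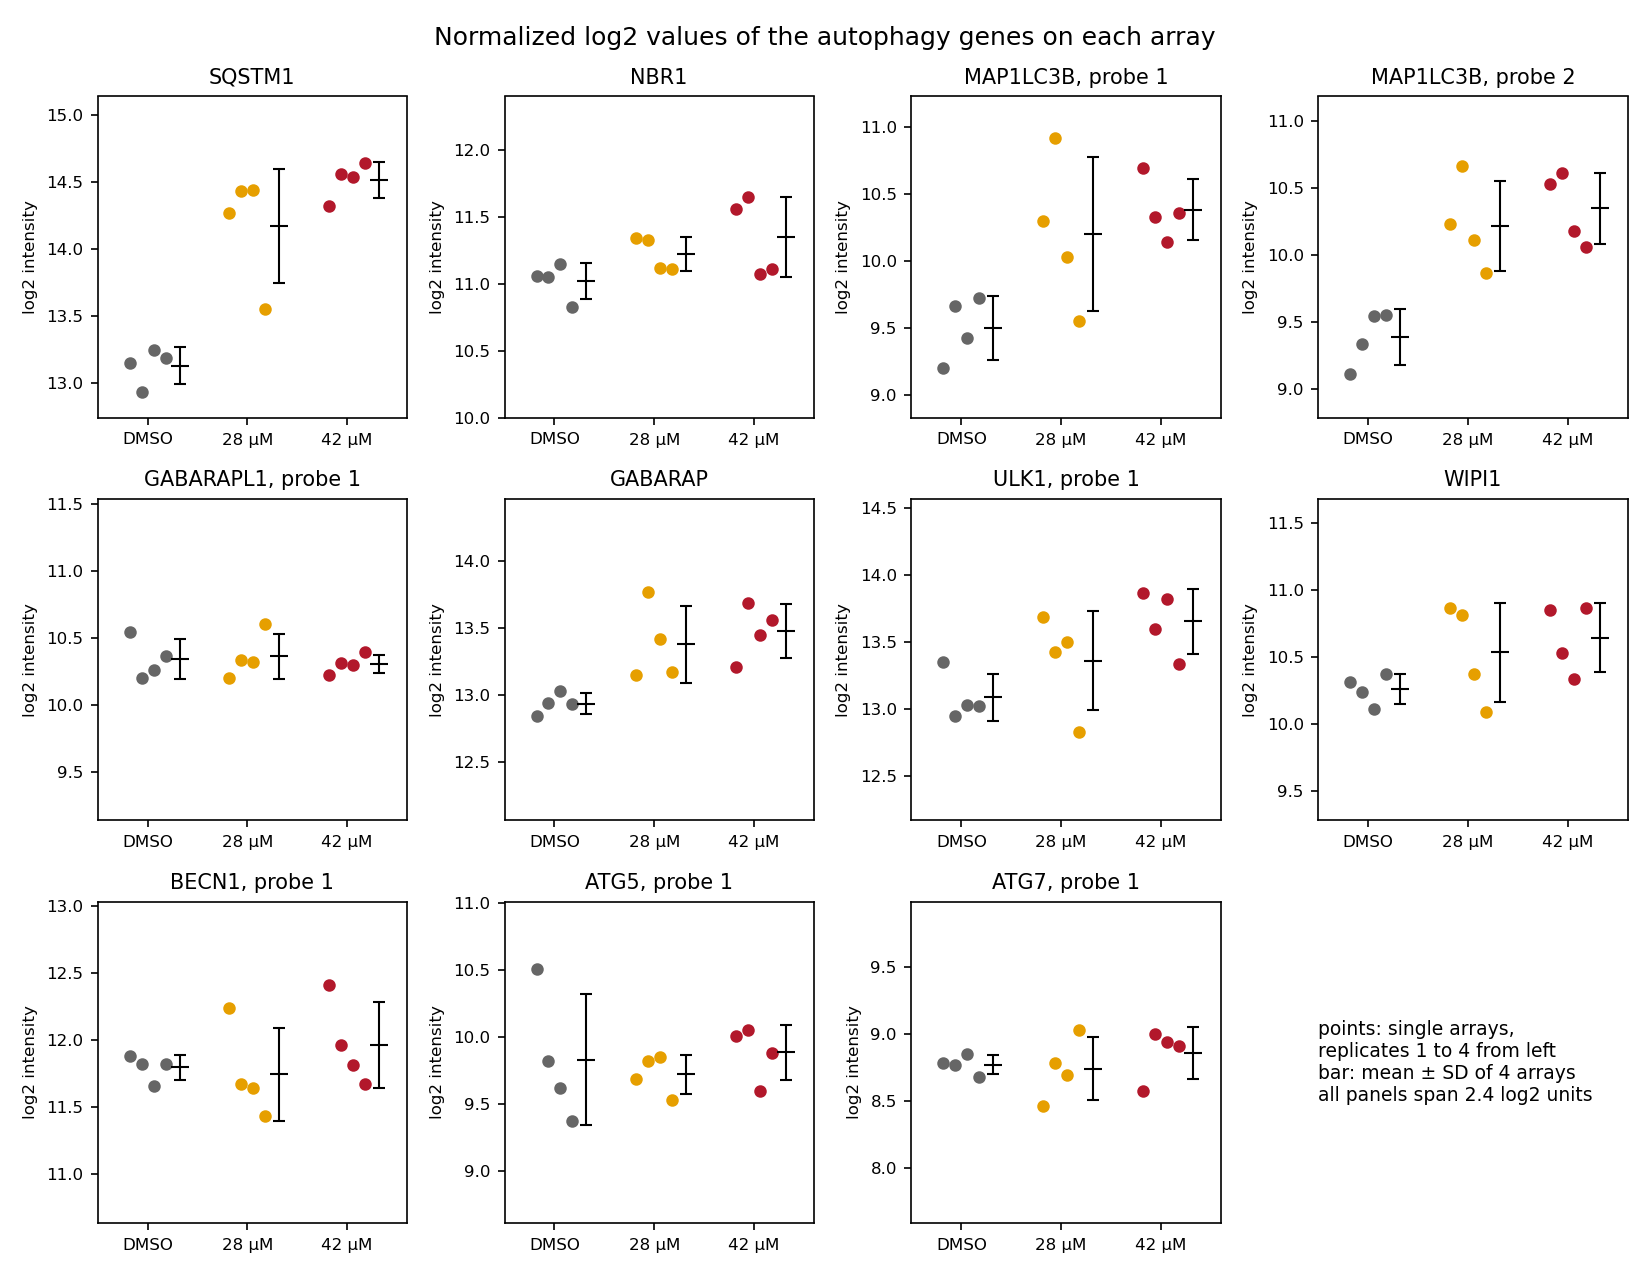
Normalized log2 intensity (vertical axis, a span of 2.4 in each panel) on each array for the brightest probe of the 10 autophagy genes and for the called probe of MAP1LC3B, by group (horizontal axis). Points are single arrays, replicates 1 to 4 from left to right, and the bar is the mean ± SD of 4 arrays. SQSTM1 lies between 12.93 and 13.25 in DMSO and between 14.32 and 14.64 at 42 µM, with 28 µM replicate 4 at 13.55 between them.

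Of the cargo receptors, SQSTM1 had the largest difference of all 10 members at both doses. Its probe (A_23_P81399, chr5:179263709-179263768 on the + strand of hg19, the build of the array files) read 13.15, 12.93, 13.25 and 13.19 on the 4 DMSO arrays. At 28 µM the values were 14.27, 14.43, 14.44 and 13.55, and at 42 µM they were 14.32, 14.56, 14.54 and 14.64. All 4 arrays of each dose lay above all 4 of DMSO, with replicate 4 of the 28 µM group the only treated array under 14. Of all probes, 2.69% were separated from DMSO upwards in this way at 28 µM and 5.82% at 42 µM, and downwards it was 2.68% and 6.48%. Among the 18 member probes, 3 were so separated at 28 µM and 5 at 42 µM, all of them upwards. The difference was thus 1.38 at 42 µM (SE 0.18, 95% interval 1.0 to 1.77, adjusted p = 0.0112 by limma), the fifth smallest p of all probes. At 28 µM it was 1.04 (SE 0.18, interval 0.65 to 1.43, adjusted p = 0.116 by limma), and without replicate 4 of that group it was 1.25 (SE 0.12, adjusted p = 0.000466 by limma). By level the order was 42 µM, 28 µM, DMSO, with means of 14.51 ± 0.140, 14.17 ± 0.424 and 13.13 ± 0.138 (SD, n = 4). The 2 doses differed by 0.34 (interval -0.04 to 0.73), which did not pass.

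The SQSTM1 probe was also compared within slides, since 3 slides held both DMSO and 42 µM arrays and 3 held both DMSO and 28 µM arrays. Its difference at 42 µM was 1.13, 1.30 and 1.61 (log2) within the 3 slides, and at 28 µM it was 1.29, 1.08 and, on the slide with replicate 4 of that group, 0.29. With the slide as a block in limma the difference at 42 µM was 1.37, but the adjusted p rose to 0.0558 and the call was lost. Leaving out DMSO replicate 2 (1.32, adjusted p = 0.0506 by limma) or 42 µM replicate 2 (1.37, adjusted p = 0.0519 by limma) also ended the call, and in both cases 0 of the 33467 probes were called.

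NBR1, the other ubiquitin-binding receptor among the members, was higher by 0.33 at 42 µM (SE 0.15, adjusted p = 0.302 by limma) and by 0.20 at 28 µM (SE 0.15, adjusted p = 0.637 by limma; 0.24 without replicate 4), and did not pass. The DMSO arrays ranged from 10.83 to 11.15 and the 42 µM arrays read 11.56, 11.65, 11.07 and 11.11. Replicates 1 and 2 of the 42 µM group were thus above every DMSO array and replicates 3 and 4 within their range.

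MAP1LC3B encodes LC3B, the Atg8 protein most often used to follow autophagosomes, and is covered by 3 probes within a short stretch of chromosome 16. Probe 2 (A_23_P77630, chr16:87437440-87437499, + strand, hg19) read 9.11, 9.33, 9.54 and 9.55 in DMSO, then 10.23, 10.66, 10.11 and 9.86 at 28 µM and 10.53, 10.61, 10.18 and 10.06 at 42 µM. Every treated array exceeded every DMSO array. The difference amounted to 0.96 at 42 µM (SE 0.18, interval 0.57 to 1.35, adjusted p = 0.0169 by limma), which was called, and 0.83 at 28 µM (SE 0.18, interval 0.44 to 1.22, adjusted p = 0.175 by limma), which was not.

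Probe 1 (A_24_P108005, chr16:87437966-87438025), the brightest of the 3, read 9.20, 9.66, 9.42 and 9.72 in DMSO, 10.30, 10.92, 10.03 and 9.55 at 28 µM, and 10.69, 10.33, 10.14 and 10.36 at 42 µM. Here 28 µM replicate 4 fell inside the DMSO range, and all other treated arrays lay above it. The difference was 0.88 at 42 µM (SE 0.24, adjusted p = 0.0656 by limma) and 0.70 at 28 µM (SE 0.24, adjusted p = 0.297 by limma). Probe 3 (A_32_P220715, chr16:87436758-87436817) gave 0.58 at 42 µM (SE 0.24, adjusted p = 0.252 by limma) and 0.33 at 28 µM (SE 0.24, adjusted p = 0.642 by limma). All 3 probes had the 4 arrays of 42 µM above those of DMSO, and they differed in size, so that the call of the gene rested on probe 2. Without 28 µM replicate 4, probes 2 and 1 were called at 28 µM (0.95, adjusted p = 0.0181, and 0.92, adjusted p = 0.0401, both by limma) and probe 3 was not (0.55).

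Within the 3 slides that held both groups, MAP1LC3B probe 2 differed by 0.84 to 1.06 at 42 µM, and at 28 µM by 0.31 on the slide with replicate 4 of that group and 0.68 and 1.0 on the others. The call at 42 µM was lost with the slide as a block (0.88, adjusted p = 0.0746 by limma) and without DMSO replicate 1 (0.87, adjusted p = 0.0549 by limma), DMSO replicate 2 (0.94, adjusted p = 0.0619 by limma) or 42 µM replicate 2 (0.87, adjusted p = 0.0723 by limma).

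GABARAP and GABARAPL1 encode Atg8 proteins of the other subfamily. GABARAP (A_23_P27075) read 12.84, 12.94, 13.03 and 12.93 in DMSO, 13.15, 13.77, 13.42 and 13.17 at 28 µM and 13.21, 13.69, 13.45 and 13.56 at 42 µM. The treated arrays of either dose did not overlap with DMSO, with replicate 1 the lowest of its group each time. The differences of 0.54 at 42 µM (SE 0.15, interval 0.22 to 0.87, adjusted p = 0.0695 by limma) and 0.44 at 28 µM (SE 0.15, interval 0.12 to 0.76, adjusted p = 0.291 by limma) were under the fold limit and did not pass. Without replicate 4 of 28 µM the latter was 0.51. GABARAPL1 overlapped with DMSO on both of its probes at both doses, its differences at 42 µM being -0.04 (interval -0.29 to 0.22) for probe 1 and -0.18 (interval -0.57 to 0.21) for probe 2. At 28 µM they were 0.02 and 0.10, and without replicate 4 of that group -0.06 and -0.05.

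ULK1, the kinase that starts autophagosome formation, was higher by 0.57 at 42 µM on probe 1 (SE 0.18, interval 0.17 to 0.96, adjusted p = 0.122 by limma) and by 0.40 on probe 2 (SE 0.15, adjusted p = 0.203 by limma), and neither passed. Probe 1 read 13.35, 12.95, 13.03 and 13.02 in DMSO and 13.87, 13.60, 13.82 and 13.34 at 42 µM. The groups overlapped by 1 pair of arrays, DMSO replicate 1 being just above 42 µM replicate 4. At 28 µM the differences were 0.28 and 0.26, and on probe 1 replicate 4 (12.83) was below every DMSO array. Without this array the differences at 28 µM were 0.45 (adjusted p = 0.168) and 0.31 (adjusted p = 0.393) by limma.

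WIPI1, which binds the phosphatidylinositol 3-phosphate on the growing membrane, was higher by 0.38 at 42 µM (SE 0.18, adjusted p = 0.321 by limma) and by 0.27 at 28 µM (SE 0.18, adjusted p = 0.601 by limma) and did not pass. Its DMSO arrays spanned 10.11 to 10.37. At 28 µM it read 10.86, 10.81, 10.37 and 10.09, and at 42 µM 10.85, 10.53, 10.33 and 10.86, so that each treated group had arrays within or above the DMSO range, apart from 28 µM replicate 4, which lay just below it. Without that array the difference at 28 µM was 0.42 (adjusted p = 0.237 by limma).

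BECN1, the regulatory subunit of the class III kinase complex, is covered by 3 probes, and none passed at either dose. At 42 µM their differences were 0.17, 0.35 and 0.26 in order of brightness, with adjusted p of 0.757, 0.303 and 0.594 by limma. At 28 µM the brightest gave -0.05 and the others 0.31 and 0.34. Probes of 1 gene therefore differed in sign at the lower dose, within intervals that all held 0. Without replicate 4 of 28 µM they were 0.06, 0.26 and 0.26.

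ATG5, which is joined to ATG12 to help transfer Atg8 proteins onto lipid, and ATG7, the enzyme that activates both of them, did not pass on any probe. The 4 probes of these genes lay between -0.15 and 0.08 at 42 µM and between -0.11 and 0.05 at 28 µM, with adjusted p from 0.699 to 0.951 at 42 µM by limma. Without replicate 4 of 28 µM they lay between -0.13 and -0.01 at that dose. The 95% intervals at 42 µM reached from -0.44 to 0.49 at their widest ends, so that changes of more than 0.49 upwards (log2) were outside them. In ATG5 the spread in DMSO on probe 1 was wide (9.37 to 10.51), with replicate 1 at the top.

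**Figure D2:**
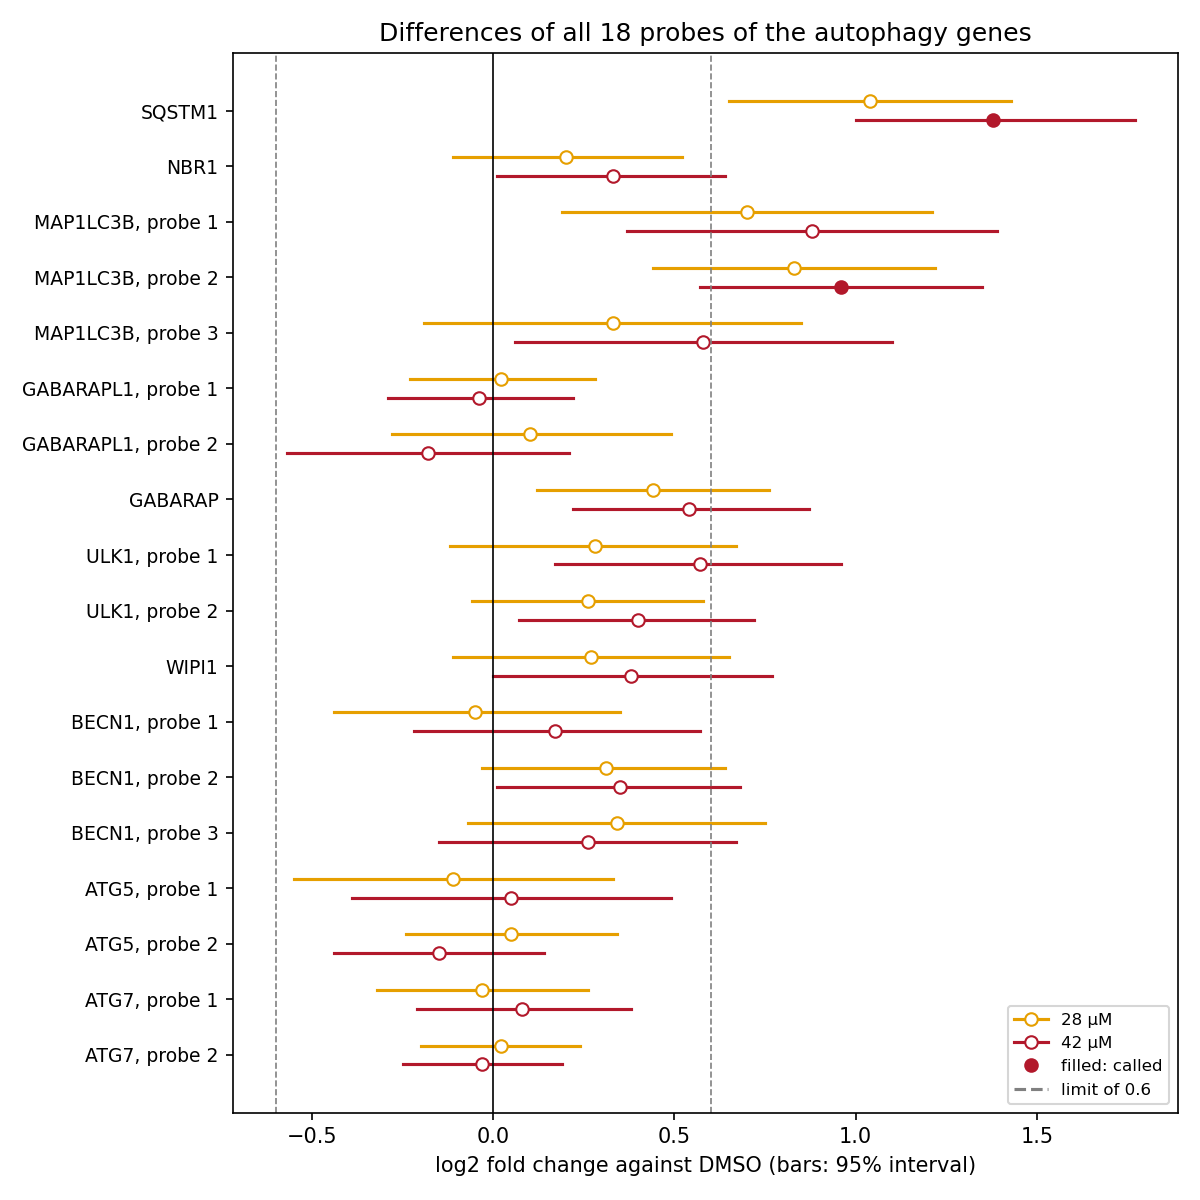
Log2 fold change against DMSO (horizontal axis) with its 95% interval for all 18 probes of the 10 autophagy genes, at 28 µM and 42 µM. Filled points are called (adjusted p below 0.05, difference beyond the dashed lines at 0.6 and -0.6), and only SQSTM1 at 1.38 and MAP1LC3B probe 2 at 0.96, both at 42 µM, are filled.

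The members also differed in how evenly the arrays of a dose carried the shift. The median difference of the 10 genes from their DMSO means was -0.07 to 0.05 on the DMSO arrays. On the 28 µM arrays it was 0.38, 0.32, 0.10 and 0.07, and on the 42 µM arrays 0.56, 0.39, 0.12 and 0.20, in the order of the replicates. Every treated array was thus above every DMSO array by this median, with a wide spread within each dose. On 28 µM replicate 4, 9 of the 18 probes were the lowest of their group and 6 the highest. Of the 18 on this array, 10 lay above every DMSO array, 5 within the range of DMSO and 3 below it.

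Between the 2 doses limma called 0 of the 33467 probes and 0 of the 18 member probes, and at an unadjusted p below 0.05 with the fold limit it was 0.117% of all probes higher at 42 µM, 0.164% lower and 0 of the members. None of the member probes had the 2 doses fully apart, against 0.63% of all probes upwards and 0.849% downwards. By the brightest probes the members differed from 28 µM to 42 µM by -0.06 (GABARAPL1) to 0.34 (SQSTM1), and 9 of 10 were higher at 42 µM, where 53.8% of all probes were. For SQSTM1, MAP1LC3B, ULK1 and BECN1 the interval of this difference by the brightest probe reached beyond the fold limit, for example from -0.33 to 0.69 for MAP1LC3B. That of ATG5 reached to the limit (-0.27 to 0.60), and that of GABARAPL1 probe 2 reached beyond it (-0.68 to 0.10). Similar levels at both doses were thus not shown for these genes, and for the other members similarity was not tested.

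Among 54 other autophagy genes, all with a probe tested, 4 rose at 42 µM and none fell. They are OPTN and STBD1, cargo receptors for ubiquitin-tagged cargo and for glycogen, ULK3, a kinase related to ULK1, and WDR45, a WIPI family protein. No other member of the list passed. Over all probes 1.41% were called higher and 1.24% lower at this dose, while the 54 genes had 91 tested probes. By the brightest probes 35 of the 54 were higher at 42 µM than in DMSO, the median difference being 0.09 against -0.01 for all probes, and 8 lay fully above and 2 (BNIP3 and VAMP8) fully below DMSO, against 5.82% and 6.48% of all probes. At 28 µM limma called 0 of the 54, with 5 (CCPG1, OPTN, STBD1, ULK3 and VMP1) higher at an unadjusted p below 0.05 with the fold limit (1.36% of all probes) and 37 of 54 higher by sign (47.5% of all probes).

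OPTN read 10.58 to 10.83 in DMSO, 11.64, 11.89, 11.59 and 10.77 at 28 µM, and 11.99, 12.19, 11.68 and 11.31 at 42 µM. As for SQSTM1, replicate 4 was the array of the 28 µM group next to DMSO. The difference came to 1.11 at 42 µM (SE 0.23, adjusted p = 0.0229 by limma), and at 28 µM it was 0.79 (SE 0.23, adjusted p = 0.232 by limma). STBD1 rose by 1.19 on its brighter probe (SE 0.22, adjusted p = 0.016 by limma) and by 0.93 on the other (SE 0.23, adjusted p = 0.0447 by limma). ULK3 rose by 0.82 on the brighter probe (SE 0.17, adjusted p = 0.0224 by limma) and, with the same size of 0.82, did not pass on the other (adjusted p = 0.0592 by limma). WDR45 rose by 0.70 (SE 0.12, adjusted p = 0.0155 by limma), the 42 µM arrays reading 11.25, 11.67, 11.41 and 11.34 against 10.49 to 10.85 in DMSO.

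All 4 of these calls were lost with the slide as a block (adjusted p 0.0598 to 0.0794 by limma), and when DMSO replicate 2 or 42 µM replicate 2 was left out (0.06 to 0.0911). OPTN was also lost without any other DMSO array or 42 µM replicate 1 (0.0549 to 0.0646), and ULK3 without DMSO replicates 1 or 4 or 42 µM replicate 3 (0.0503 to 0.0705). With the processed signal scaled to the 75th percentile OPTN, ULK3 and WDR45 did not pass (adjusted p 0.0652 to 0.0886), and WDR45 also fell under the fold limit in the same scaling of the other signal (0.57). Without 28 µM replicate 4, OPTN (1.02, adjusted p = 0.0137) and ULK3 (0.74, adjusted p = 0.0227) were called at 28 µM by limma, and STBD1 was not (0.89, adjusted p = 0.0818). CCPG1, a receptor for the endoplasmic reticulum, was then called by limma on the dimmest of its 3 probes alone (0.88, adjusted p = 0.016). That probe had a DMSO mean of 6.33. With all 28 µM arrays it gave 0.70, the brightest 0.26 (adjusted p = 0.799 by limma) and the remaining probe 0.74 (adjusted p = 0.29 by limma).

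By role, cargo receptors had the highest median at 42 µM, 0.28 over 15 genes of which 11 were higher, followed by the initiation kinases with 0.20 over 5. The conjugation machinery stood at -0.10 over 9 genes and the other Atg8 genes at -0.09 over 3, none of which was higher. Of these Atg8 genes, 1 was above background on only 1 of 4 arrays at 42 µM, near the floor. The dimmer probe of another gave 0.08. These medians are descriptions, and the roles were not tested against each other. The 4 largest decreases were those of BNIP3, a mitochondrial receptor, VAMP8, a fusion protein, and the proteases ATG4A and ATG4C, and none passed. BNIP3 differed by -0.57 (SE 0.18, adjusted p = 0.109 by limma), reading 13.09, 13.33, 13.60 and 13.66 in DMSO and 12.79 to 12.94 at 42 µM. It passed when the Edwards values were scaled to the 75th percentile (-0.79, adjusted p = 0.0432 by limma) and with array weights (-0.62, adjusted p = 0.0218 by limma). With the processed signal scaled in the same way it did not pass. VAMP8, ATG4A and ATG4C differed by -0.22, -0.16 and -0.16.

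**Figure D3:**
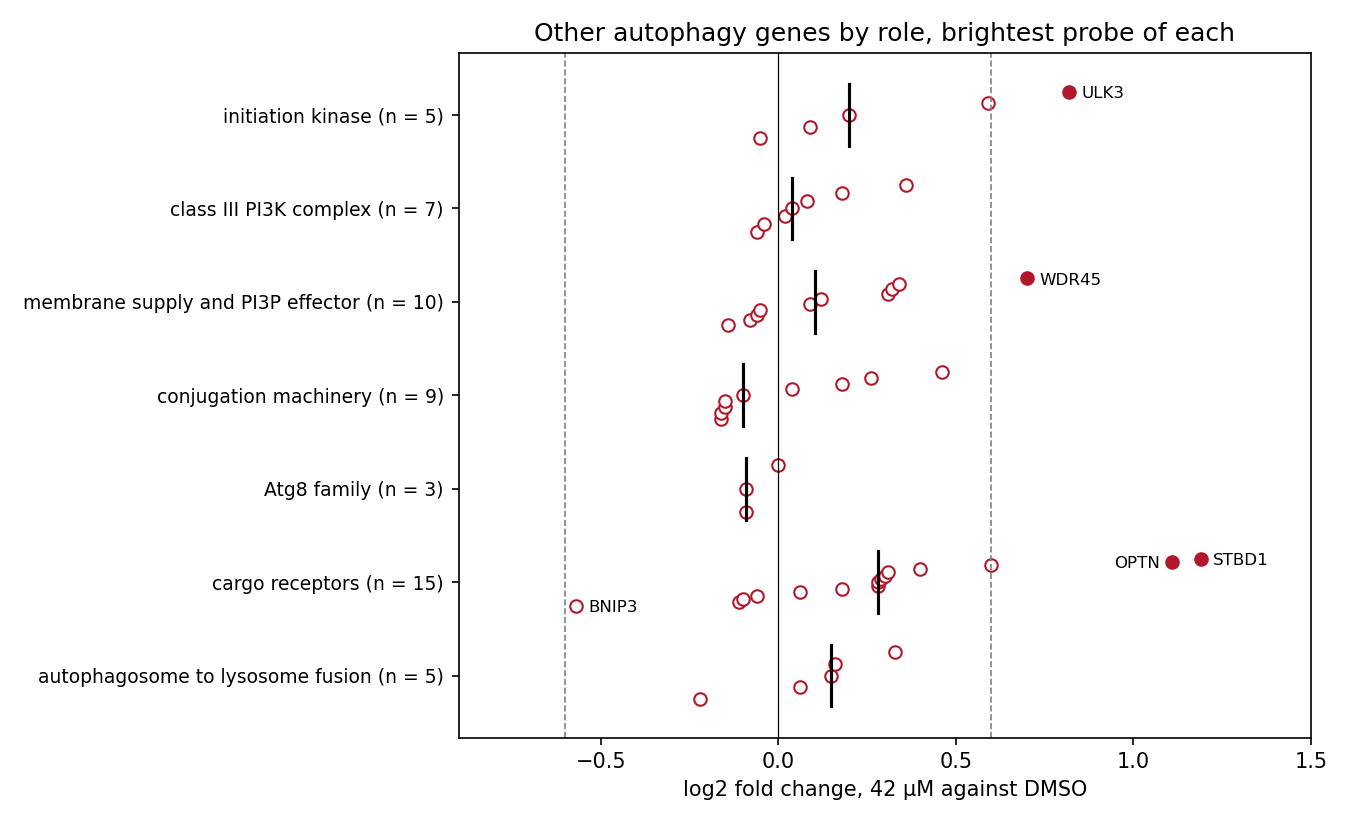
Log2 fold change at 42 µM against DMSO (horizontal axis) of 54 other autophagy genes, each by its brightest probe and grouped by role (vertical axis). Filled points are called, the vertical ticks are the medians of the roles and the dashed lines the fold limit of 0.6. OPTN, STBD1, ULK3 and WDR45 are the called genes, and BNIP3 at -0.57 is the lowest.

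Of 9 transcription factors known to act on autophagy genes, ATF4, DDIT3, CEBPB and FOXO3 rose at 42 µM, and TFEB, TFE3, MITF, FOXO1 and NFE2L2 did not pass. At this dose 1.41% of all probes were called higher and 1.24% lower. By the brightest probes 4 of the 9 were higher and 5 lower, with a median of -0.08 against -0.01 for all probes. ATF4 and DDIT3 are mediators of the integrated stress response. DDIT3 read 7.85 to 8.22 in DMSO, 10.01, 9.86, 9.94 and 8.06 at 28 µM, and 10.86, 10.57, 10.03 and 9.19 at 42 µM. Replicate 4 of 28 µM thus lay within the DMSO range, as it did for OPTN and for MAP1LC3B probe 1. DDIT3 rose by 2.20 at 42 µM (SE 0.41, adjusted p = 0.0166 by limma). ATF4 rose by 0.76 on its brighter probe (SE 0.12, adjusted p = 0.0125 by limma) and by 1.18 on the other (SE 0.21, adjusted p = 0.0152 by limma). CEBPB rose by 1.44 on the brighter probe (SE 0.32, adjusted p = 0.0303 by limma), while its dimmer probe gave 0.10. FOXO3 rose by 0.81 on the brighter probe (SE 0.18, adjusted p = 0.0303 by limma), and its other probe did not pass (0.57, adjusted p = 0.154 by limma).

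The other 5 factors lay between -0.37 for TFEB and -0.08 for TFE3 at 42 µM by their brightest probes. The interval of TFEB was wide and held 0 (-1.04 to 0.3, adjusted p = 0.661 by limma). Its DMSO replicate 1 read 9.21, while the other DMSO arrays (7.69 to 8) lay within the 42 µM range of 7.38 to 8.38. A fall of TFEB was thus not shown. No factor was called at 28 µM by limma, where ATF4, CEBPB and DDIT3 were higher at an unadjusted p below 0.05 with the fold limit. By that limit 1.36% of all probes were higher and 1.02% lower. With all 4 arrays of 28 µM, the brightest probes gave 1.5 for DDIT3 (adjusted p = 0.214) and 0.9 for CEBPB (adjusted p = 0.318) by limma. ATF4 gave 0.56 (adjusted p = 0.175) and FOXO3 0.59 (adjusted p = 0.251) by limma, both under the fold limit. The dimmer probe of ATF4 gave 1.12 (adjusted p = 0.141 by limma). Without replicate 4 of 28 µM, DDIT3 (1.97, adjusted p = 0.00568), CEBPB (1.25, adjusted p = 0.021) and ATF4 (0.62, adjusted p = 0.0239) were called at that dose by limma, and FOXO3 was not (0.65, adjusted p = 0.121). With the slide as a block or without DMSO replicate 2 or 42 µM replicate 2, none of the 4 calls by brightest probe held (adjusted p 0.0506 to 0.117 by limma). With the processed signal scaled to the 75th percentile ATF4 (0.59, adjusted p = 0.154) and CEBPB (1.28, adjusted p = 0.0928) did not pass by limma, nor did ATF4 with the other signal scaled in that way (0.62, adjusted p = 0.0883). CEBPB and FOXO3 were also lost without any other DMSO array, CEBPB without 42 µM replicate 1, FOXO3 without 42 µM replicate 3 and DDIT3 without DMSO replicate 4 (adjusted p 0.0502 to 0.0856 by limma).

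Of 24199 genes compared by their brightest probe, the 5 whose values over the 12 arrays were most like those of SQSTM1 were NPC1L1, PHGDH, S100P, SHC2 and NEU1, with Pearson's r from 0.972 to 0.986. These r describe 12 arrays in 3 groups, so that any gene with the same order of groups and the same low 28 µM replicate 4 scores high. NEU1, a lysosomal sialidase, differed most from DMSO among the 5 at 42 µM (2.11, SE 0.35, adjusted p = 0.0131 by limma), followed by PHGDH, an enzyme of serine synthesis (1.69, SE 0.26, adjusted p = 0.0112 by limma). Of the other members, GABARAP (r = 0.871), MAP1LC3B (0.819) and ULK1 (0.758) were nearest to SQSTM1 by this measure, while ATG5 (0.0615), ATG7 (0.0254) and GABARAPL1 (-0.21) were far from it.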

How the data were processed

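RNA of 12 cultures of HuH-7 cells was measured on 1-colour Agilent arrays. The authors deposited the output of Agilent Feature Extraction 10.7.3.1 for each array, with a mean and a background intensity per spot before normalization, and a table of their own normalized log2 values, used as an alternative. Probe positions are on hg19, per the file headers. From the deposited intensities, control spots and outlier spots were left out, and the Edwards background correction and quantile normalization of limma 3.58.1 (in R 4.3.3) were applied after the methods of the study. Values were taken to log2 and spots of a probe averaged. A probe was removed if, in each group, on at least 3 of its 4 arrays it failed the scanner software's test for signal above background, which left 33467 of 41000. The number of arrays limits the precision.

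One model with 3 groups was fitted to the 12 arrays by lmFit and eBayes, with two-sided tests and Benjamini-Hochberg adjustment over all probes of a comparison. The procedure was run on simulated data with independent noise and no slide or array effect, so that the run says nothing on such effects here. Named are all probes of the 10 members, of the other autophagy genes those called and the 4 largest increases and decreases at 42 µM, the called transcription factors, and the 5 genes most like SQSTM1 by Pearson's r. CCPG1, VMP1 and the factors not called were named after their values were seen. The brightest probe stands for a gene in counts and medians. The members and lists were chosen with earlier results of these data known. 68.5% of the probes were named through RefSeq (GRCh38.p14), and the others kept the design's name. Promoter windows are from RefSeq, and all 10 members matched. Alternatives were other background corrections, scalings, filters and limits, the authors' values, blocks, array weights, and leaving out each array. Plots and searches used Python 3.11.15 with matplotlib 3.10.9, pandas 2.3.3 and numpy 2.4.6. Where the exon or UTR of a probe lies was not analysed here.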

Additional observations from a re-analysis of the deposited data

Results flagged for a closer look

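Dixon's test was applied to the arrays of each group for the 35 probes named, 105 groups in all, and 4 had an array beyond the 95% critical value of 0.829, which chance passes in about 1 of 20 groups. For ATG4A, DMSO replicate 1 read 8.94 with the next array at 8.43. For DDIT3, DMSO replicate 1 read 8.22 with the next at 7.90, and 28 µM replicate 4 read 8.06 with the next at 9.86. For NEU1, 28 µM replicate 4 read 11.44 with the next at 13.29. Both values at 28 µM are from the array that lay nearest to DMSO for SQSTM1, and the cause was not tested.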

How the results depend on the processing

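The direction of the members called was the same under all alternatives tried, and no result turned its sign past a limit. With the slide as a block, 0 members and 0 other autophagy genes were called at 42 µM, in place of 2 and 4. With a log2 limit of 1 it was 1 member and 2 others, with only the brightest probe 1 member, and with the processed signal scaled to the 75th percentile 1 other gene. Leaving out 1 array at a time gave 0 to 2 members and 0 to 5 others at 42 µM, the 0 arising without DMSO replicate 2 or 42 µM replicate 2 and 1 member without DMSO replicate 1, and 0 to 2 members and 0 to 3 others at 28 µM, the highest without 28 µM replicate 4. The median of the members, 0.35 at 42 µM and 0.24 at 28 µM, was 0.16 and 0.11 with the processed signal scaled to the 75th percentile and 0.25 and 0.11 with the Edwards values so scaled. That of the other autophagy genes was 0.05 at 42 µM with the Edwards values so scaled. At 28 µM it was 0.11 with the slide as a block and 0.06 to 0.10 with 1 array left out. With the replicate number as a block, 2 members and 5 others were called at 42 µM. Whether arrays of the same number were paired cannot be told from these values. The deviations of 12 same-numbered pairs correlated from -0.46 to 0.62, with 7 above 0.1, and 5 of 12 arrays were closest to their own number. Over all probes, the 473 higher and 415 lower at 42 µM became 0 and 1 when the slide was blocked, 778 and 591 with the replicate block, 208 and 157 with the limit of 1, 278 and 342 with the scaled processed signal, and 0 to 673 and 0 to 552 with 1 array left out. The lists' counts at 42 µM were the same with normexp, the authors' normalized values, no filter and a strict filter. The arrays are few, and their values cannot show small changes of the dimmer probes.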
